A study of Mus musculus with 3 samples.

Results

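The cells described here are the tendon cells of 2 single-cell libraries, one from a mouse embryonic stem cell (mESC) culture harvested on day 10 (D10) and one from the tail of the mouse embryo at embryonic day E14.5. They were taken as all cells that carry cluster code 1 in the authors' own clustering. This code held 2964 of 7821 cells of the culture (37.9%) and 685 of 2052 cells of the tail (33.4%), so 3649 of 9873 cells in both libraries. The comparison asks how close the culture-derived tendon cells were to embryonic tendon cells in matrix, maturity, signaling and metabolism.

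The culture came from mESCs that carry the ScxGFP reporter, which drives GFP from regulatory sequence of the tendon gene *Scx*. Cells were steered to paraxial mesoderm with LDN-193189 at 500 nM, an inhibitor of BMP receptors, and CHIR at 5 μM, an activator of WNT signaling. From day 6 on they received TGFβ1 at 10 ng/mL, SAG at 100 nM, an agonist of the hedgehog transducer Smoothened, and FGF2 at 10 ng/mL. The tail was cut from embryos of ScxGFP mice on the C57BL6 strain and received no agent. The study's methods state that embryos of either sex were taken, and how many went into this library is not given in the sources used here. Both samples were dissociated with trypsin and collagenase, depleted of dead cells and sequenced with the same 3′ chemistry, which counts unique molecular identifiers (UMIs). There was 1 library per group, so no value below has a replicate check and no difference between culture and tail was tested. Origin, age, sex of the cells, handling and library cannot be told apart. The authors built the clusters after integrating both libraries, so a gene that defines tendon cells is not independent evidence that the cells of both sides are alike.

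Tendons carry force through aligned fibrils of type I collagen, and minor collagens and small leucine-rich proteoglycans set the width and spacing of those fibrils. Tendon progenitors are marked by the transcription factor *Scx*, depend on TGFβ for their recruitment and maintenance, and later express *Mkx* and *Tnmd* as the fibrils mature. Axial tendons arise from the somites next to the sclerotome, whereas limb tendons arise from lateral plate mesenchyme.

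The tendon cells of the culture gave 16589854 UMIs and those of the tail 10124831, with a median of 4918.5 UMIs per cell (784 to 20683) against 13463 (1832 to 43239). Levels are therefore given as counts per 1000000 summed UMIs (CPM), and shares of cells with a UMI were taken after each cell had been thinned to 3000 UMIs, which left out 369 culture cells and 7 tail cells. Ranges in parentheses are exact 95% intervals that cover counting error only. A gene was called higher when its CPM differed at least 2-fold, among genes with at least 20 CPM in the higher library and at least 30 UMIs in all. None of the barcodes of the tendon cells occurred in both libraries.

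The label was first checked against 12 tendon markers, of which 12 reached 20 CPM in both libraries, with summed levels of 16395 CPM in the culture and 14380 CPM in the tail. *Col1a1*, the main chain of type I collagen, stood at 2741 CPM in the culture and 3185 CPM in the tail and was found in 99.1% and 95.3% of cells. *Scx* stood at 2410.3 and 1472 CPM, a culture over tail ratio of 1.64 (1.61 to 1.67). It was spread differently over the cells, since 90.7% of culture cells (89.5 to 91.8) but 35.7% of tail cells (32.1 to 39.4) held a *Scx* UMI at equal depth, and 92.9% and 52.6% without thinning. In cells that should lack *Scx*, the share was 4.0% in the erythroid cells of the tail and 8.88% in the pluripotent-like cells of the culture. The tail cluster thus mixed cells with and without detected *Scx*, and values restricted to cells with a *Scx* UMI (2753 culture cells and 360 tail cells) are given below for the described genes that gained or lost a 2-fold difference and for some others.

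Markers of other cells moved with the libraries as well. Erythroid markers summed to 42.5 CPM in the culture and 2046 CPM in the tail, and 4 tail cells held 88.0% of the tail's haemoglobin UMIs. The rest was spread widely at a low level, since 52.8% of tail cells and 3.04% of culture cells held an erythroid marker UMI at equal depth. Nerve and Schwann markers summed to 7.53 and 55.9 CPM, muscle markers to 11.9 and 34.1 CPM, endothelial markers to 49.9 and 42.3 CPM and epidermis markers to 28.9 and 31.2 CPM. In the other direction, pluripotency markers summed to 43.6 CPM in the culture and 4.84 CPM in the tail, and notochord markers to 116 and 22.1 CPM. Of the culture levels, only 1 of 9 pluripotency markers (*Dppa5a*, 23.1 CPM) and 1 of 7 notochord markers (*Slc2a3*) reached 20 CPM. Among culture cells with a *Scx* UMI, *Slc2a3* stood at 78.5 CPM, while *T* and *Foxa2* of the same list held 4 UMIs each. The notochord sum thus leaned on *Slc2a3*, and the presence of notochord cells was not tested. Apart from erythroid markers, each of these lists stayed under 1 in 100 of the summed tendon markers, and their part in the differences below was not tested.

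Most genes were within 2-fold between the 2 sides, among cells that the integration of both libraries had placed under the same code. No share between unlike cells is given for comparison. Of 8103 tested genes, 6642 (82.0%) lay within 2-fold, 611 were higher in the culture (7.54%) and 850 were higher in the tail (10.5%). The median log2 ratio of culture over tail was −0.14, with quartiles at −0.53 and 0.27, and the other 19652 genes were under the floor. For a gene that reached the floor of 20 CPM in 1 library only the direction was fixed by the floor, and this held for 511 genes in the culture and 1126 in the tail. Of the 6466 genes at the floor in both, 303 were higher in the culture and 285 in the tail. This count is given below for many of the lists. In the other lists, too, the floor can have fixed the direction of some calls. The lists moved unequally: 43 of 158 genes of tendon identity, axial position, cell cycle and related maturity lists were higher in the culture and 59 in the tail, compared with 31 and 29 of 128 matrix genes, 32 and 48 of 180 signaling genes and 96 and 23 of 366 metabolic and stress genes.

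**Figure D1:**
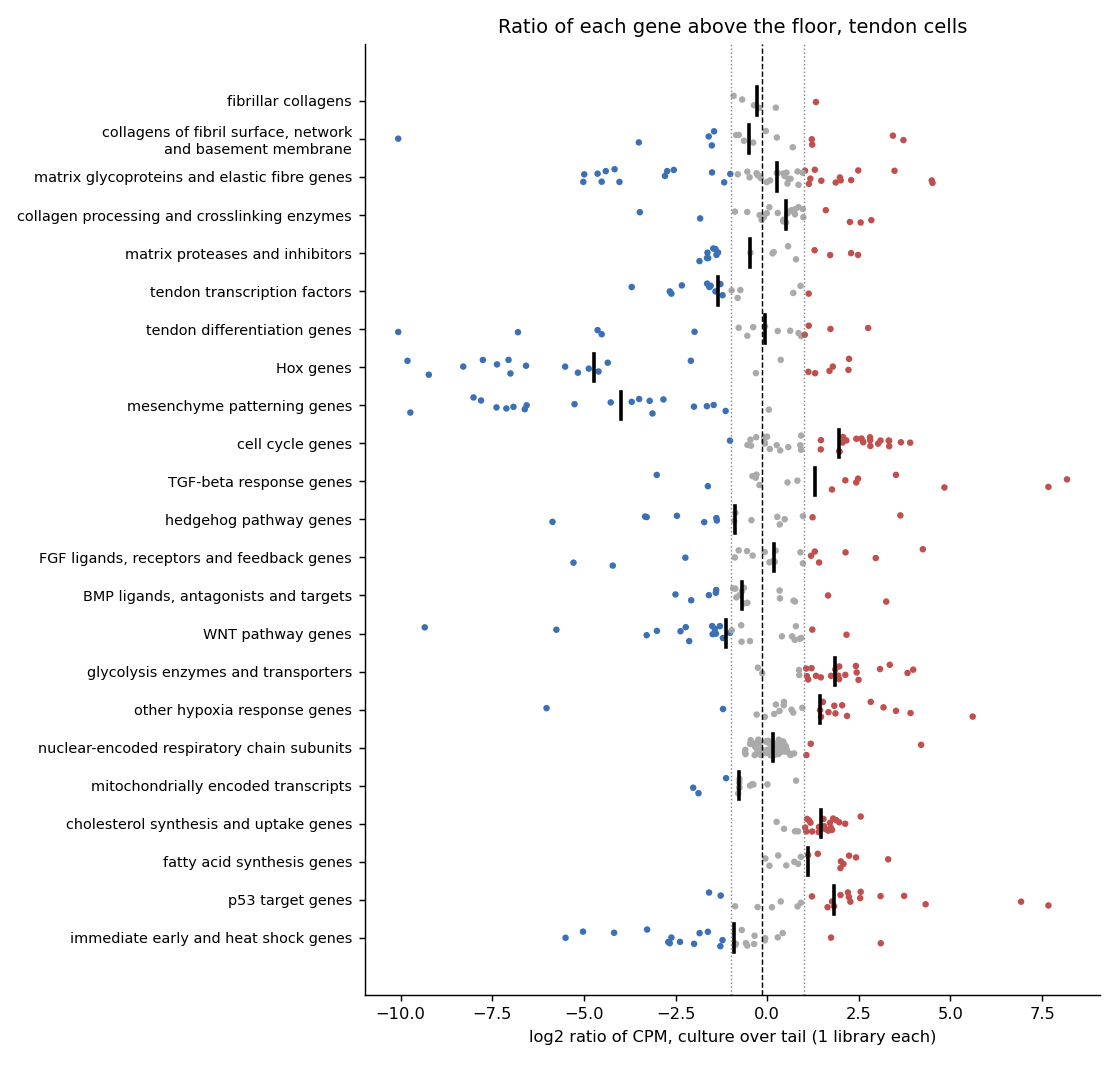
Log2 ratio of CPM, culture over tail, for each tested gene (points) of the gene lists, with the median of each list. Glycolysis, cholesterol and p53 target genes sit to the culture side, Hox genes split into 2 groups and mesenchyme patterning genes sit to the tail side.

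On the culture side, the 15 genes whose interval bound was farthest from 1 included 3 cyclin-dependent kinase (CDK) inhibitors (*Cdkn2a*, *Cdkn2b* and *Cdkn1a*), the secreted proteins *Spp1*, *Igfbp7* and *Adamtsl2*, the p53 target *Psrc1* and the hypoxia-associated *Ndufa4l2*. The rest of the 15 were *Rps2*, *Gm42047*, *Rhox5*, *Fabp2*, *Cyp1b1*, *Ddah1* and *Icam1*. On the tail side they included the posterior Hox genes *Hoxc11*, *Hoxc12* and *Hoxc13*, the transcription factors *Osr2*, *Dmrt2* and *Isl1*, the chemokine *Cxcl14*, the matricellular gene *Nov*, the carboxypeptidase *Cpa6* and *Col6a6*. The Y-linked *Eif2s3y* and *Ddx3y* and the globins *Hbb-bt*, *Hbb-bs* and *Hba-a1* made up the remainder, so 5 of the 15 were Y-linked or globin genes.

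The fibrillar collagens were close, whereas the collagens around the fibril differed. In type I collagen, *Col1a1* was 1.16 (1.15 to 1.18) times and *Col1a2* 1.28 (1.26 to 1.3) times higher in the tail. *Col3a1*, which with type I collagen forms the early fibril, stood at 1884 CPM in the culture and 3557 CPM in the tail, and *Col5a1*, which nucleates fibrils, at 358 and 574 CPM. Only *Col11a1* of the 6 tested fibrillar genes was called, at 544 against 216 CPM, 2.51 (2.4 to 2.64) times higher in the culture, and in cells with a *Scx* UMI the ratio was 1.7. Type XI collagen is abundant in cartilage and is also found in young tendon. At 3000 UMIs the median cell held 23 fibrillar collagen UMIs on both sides, but the tail was wider, with a 95th percentile of 79 UMIs against 48 in the culture.

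The fibril-associated, network and basement membrane collagens went both ways, 4 of 16 tested genes higher in the culture and 5 in the tail (median log2 ratio −0.51). For the 13 at the floor in both libraries the counts were 4 and 2 (median −0.04). *Col8a1* stood at 477 CPM in the culture and 36.2 CPM in the tail, a ratio of 13.2 (11.8 to 14.6). *Col18a1*, the source of endostatin, stood at 579 and 53.7 CPM, a ratio of 10.8 (9.88 to 11.8), and the basement membrane chains *Col4a1* and *Col4a2* were 2.33 and 2.34 times higher in the culture. Type VI collagen, which forms the pericellular network of tendon cells, had 2 of its 4 tested chains higher in the tail. *Col6a1*, at 237 against 426 CPM, and *Col6a3*, at 235 against 365 CPM, lay within 2-fold, and *Col6a2* stood at 109 against 309.8 CPM. *Col6a6* had 654 UMIs in the tail and 1 in the culture, a tail over culture ratio of 1072 (192 to 42390). The FACIT collagens *Col12a1* and *Col14a1*, which coat tendon fibrils, stayed within 2-fold at 256 against 439 and 296 against 386 CPM. The transmembrane *Col23a1* was 11.3 (9.55 to 13.5) times higher in the tail.

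The small leucine-rich proteoglycans did not move as a group. *Fmod*, which promotes lateral fibril growth in tendon, stood at 281 CPM in the culture and 41.7 CPM in the tail, a ratio of 6.75 (6.11 to 7.47). *Bgn*, its companion biglycan, stood at 1104 and 251 CPM, a ratio of 4.39 (4.22 to 4.58). *Dcn* and *Lum*, the other main members in tendon, were within 2-fold, at 1765 against 1499 CPM and 385 against 608 CPM. *Kera* was not detected in the culture tendon cells, where 0 UMIs allow up to 3 counts, and stood at 20.1 CPM in the tail, at least 111-fold higher. Of 7 tested genes 2 were higher in the culture, 1 in the tail.

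The glycoproteins split evenly, 13 of 47 tested genes higher on each side. Of the 34 genes that reached 20 CPM in both libraries, 11 were higher in the culture and 2 in the tail. *Fn1*, fibronectin, stood at 2882 CPM against 717 CPM in the tail, 4.02 (3.92 to 4.12) times higher. *Mgp*, an inhibitor of calcification, stood at 2395 against 216 CPM, a ratio of 11.1 (10.6 to 11.6). *Postn*, a TGFβ-inducible collagen crosslinking partner, stood at 2363 against 422 CPM, a ratio of 5.6 (5.42 to 5.78). *Igfbp7*, which binds insulin-like growth factors, stood at 825 against 36.7 CPM, and it was found in 66.8% of culture cells and 5.6% of tail cells. *Thbs2* and *Cthrc1* were 3.95 and 3.65 times higher in the culture. Summed over the list, the culture held 2.06 times the tail's level, and at 3000 UMIs the median cell held 55 against 25 UMIs of these genes.

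The glycoproteins higher in the tail were mostly those under the floor in the culture. *Efemp1* and *Abi3bp*, a component of elastic fibres and a collagen-binding protein of connective tissue, stood at 3.19 and 3.86 CPM in the culture and 103 and 95.3 CPM in the tail, ratios of 32.4 (24.6 to 43.5) and 24.7 (19.2 to 32.3). *Matn2*, a bridging protein of the matrix, was 21.2 (16.9 to 26.8) times higher in the tail, and *Mfap5*, a microfibril component of mature tendon sheath, was 22.9 (14.8 to 37) times higher. *Smoc2*, at 41.7 against 288 CPM, was the most abundant of the 13 genes higher in the tail. *Eln*, *Fbn1* and *Mfap4*, the core of the elastic fibre, stayed within 2-fold.

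Among 25 tested enzymes that process and crosslink collagen, the 4 higher in the culture were hydroxylases. The prolyl 4-hydroxylase chains *P4ha1* and *P4ha2*, which stabilize the triple helix, stood at 768 against 161 CPM and 499 against 69.6 CPM, ratios of 4.78 (4.54 to 5.04) and 7.17 (6.63 to 7.75). The lysyl hydroxylases *Plod1* and *Plod2*, which prepare crosslinks, were 3.03 (2.8 to 3.28) and 5.85 (5.51 to 6.22) times higher. The crosslinking enzymes differed less, with *Lox* at 293 against 239.6 CPM and *Loxl1* at 50.1 against 50.5 CPM, and the chaperone *Serpinh1* at 1821 against 1337 CPM. *Adamts2*, the procollagen N-proteinase, went the other way, at 5.12 CPM in the culture and 56.9 CPM in the tail, a ratio of 11.1 (8.83 to 14.1). *Adamts2* was 1 of 2 genes of the list higher in the tail.

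Of 17 tested matrix proteases and inhibitors, 8 were higher in the tail and 4 in the culture (median log2 ratio −0.46). The summed level was nevertheless 1.3 times higher in the culture, and with a floor of 50 CPM the median was 0.15. The proteases *Adamts12*, *Mmp11* and *Mmp16* were 3.6, 3.09 and 3.05 times higher in the tail, as was the inhibitor *Reck* at 3.12 times, and at 4-fold none of the tail differences remained. The inhibitor *Timp1*, a known TGFβ target, was 4.89 (4.36 to 5.49) times higher in the culture, as was the gelatinase *Mmp2* at 2.45 (2.29 to 2.62). Cartilage genes were low in both, and *Col9a3* was the single called member of 7 tested, at 138 against 38.8 CPM, a ratio of 3.56 that was 2.31 in cells with a *Scx* UMI. *Col2a1* stood at 218 CPM in the culture tendon cells and 111 CPM in those of the tail, while the fibrocartilage cells of the same libraries, those of cluster code 4, held 2271 and 4282 CPM. The name rests on the cartilage genes, and it departs from the study's table of cluster sizes, where the cluster number described as fibrocartilage has the cell numbers of the cells called pluripotent-like here. Those cells, of code 3, held *Col2a1* at 26.9 CPM in the culture and 5.84 CPM in the tail. *Spp1*, the bone-associated osteopontin, stood at 251 against 0.395 CPM, with 4 UMIs in the tail. *Spp1* was also present in 75.9% of the pluripotent-like culture cells at 848 CPM, compared with 19.9% of culture tendon cells, whereas *Dppa5a*, a pluripotency gene, stood at 4021 CPM in the pluripotent-like cells and 23.1 CPM in culture tendon cells.

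Apart from *Scx* itself, the transcription factors of tendon leaned to the tail, with 10 of 16 tested genes higher there and 1 higher in the culture (median log2 ratio −1.34). *Mkx*, which drives collagen fibril growth, was the exception, at 48.9 CPM in the culture and 22.3 CPM in the tail, a ratio of 2.19 (1.89 to 2.55) that was 1.5 in cells with a *Scx* UMI. The nuclear factor I genes *Nfia*, *Nfib* and *Nfix* stood at 131, 169.8 and 122 CPM in the culture and 409, 853 and 363 CPM in the tail. *Nfib* was 5.02 (4.81 to 5.24) times higher in the tail and was found in 81.3% of tail cells and 37.3% of culture cells. *Egr1*, a force-responsive regulator of tendon collagen that is also an immediate early gene, stood at 71.2 against 436 CPM, 6.12 (5.74 to 6.53) times higher in the tail. *Klf4* was 6.31 (5.7 to 6.99) times higher in the tail.

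Differentiation genes were mixed. *Tnmd*, the membrane protein that marks differentiated tenocytes, stood at 23.6 CPM in the culture and 93 CPM in the tail, a ratio of 3.95 (3.5 to 4.45). Its share of cells was 4.24% (3.5 to 5.09) in the culture and 7.52% (5.65 to 9.77) in the tail. In cells with a *Scx* UMI the levels were 24.3 and 157 CPM. In the tail 4.87% of cells (3.37 to 6.77) held both *Scx* and *Tnmd* UMIs, where the product of the single shares gives 2.68%, and in the culture 3.85% (3.15 to 4.67) held both, where the product gives 3.85%. *Thbs4*, *Chodl* and *Htra1* were higher in the culture by 1.81, 3.31 and 2.04 times, the first of them within 2-fold. In cells with a *Scx* UMI *Chodl* was 2.2 and *Htra1* 1.75 times higher, and 2 genes of the list were higher in the culture. Of 17 tested genes 4 were higher in the culture and 5 in the tail, with a median log2 ratio of −0.06 beside −0.14 over all tested genes. Of the 13 at the floor in both libraries, 4 were higher in the culture and 1 in the tail.

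Somite and sclerotome genes were split, with 5 of 15 tested genes higher on each side. *Foxc1* and *Foxc2*, needed for paraxial mesoderm, stood at 244 against 36.3 CPM and 52.4 against 10.5 CPM, and *Meox1* and *Tcf15*, markers of the epithelial somite, were 3.0 (2.7 to 3.33) and 2.1 (1.81 to 2.44) times higher in the culture, *Tcf15* at 1.78 in cells with a *Scx* UMI. In the tail the sclerotome factor *Pax1* stood at 122 against 17.2 CPM and *Meox2* at 144 against 36 CPM. *Twist2*, which marks mesenchyme and dermis, was 5.55 (4.93 to 6.26) times higher in the tail, whereas *Twist1* stayed within 2-fold at 599 against 795 CPM. Genes of the LIN28 and let-7 timing pathway were flat, with 0 of 5 tested genes called and *Hmga2* at 443 against 383 CPM.

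Hox genes differed by their place in the clusters. Of 22 tested Hox genes, 6 were higher in the culture and 14 in the tail. Only 3 of the 22 reached 20 CPM in both libraries, so the direction of the others was fixed by the floor. Those higher in the culture were *Hoxa5*, *Hoxb2*, *Hoxb3*, *Hoxb4*, *Hoxd8* and *Hoxd9*, which pattern the neck and trunk, with *Hoxb4* at 66.8 against 14.2 CPM, a ratio of 4.7 (3.95 to 5.63). The ratio of *Hoxa5* was 2.18, and 1.86 in cells with a *Scx* UMI. Those higher in the tail were *Hoxc8*, *Hoxa9*, *Hoxb9*, *Hoxc9* and 10 genes of paralog groups 10 to 13, which pattern the lumbar to caudal axis. *Hoxa10* stood at 1.87 CPM in the culture and 249 CPM in the tail, a ratio of 133 (93.6 to 196). *Hoxc13*, *Hoxc12* and *Hoxb13* had no UMI in the culture tendon cells and stood at 163, 56.7 and 29.9 CPM in the tail, at least 899.5, 314 and 165-fold higher. *Hoxd10* was the 1 tested gene of groups 10 to 13 within 2-fold, at 22.7 against 28.1 CPM.

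**Figure D2:**
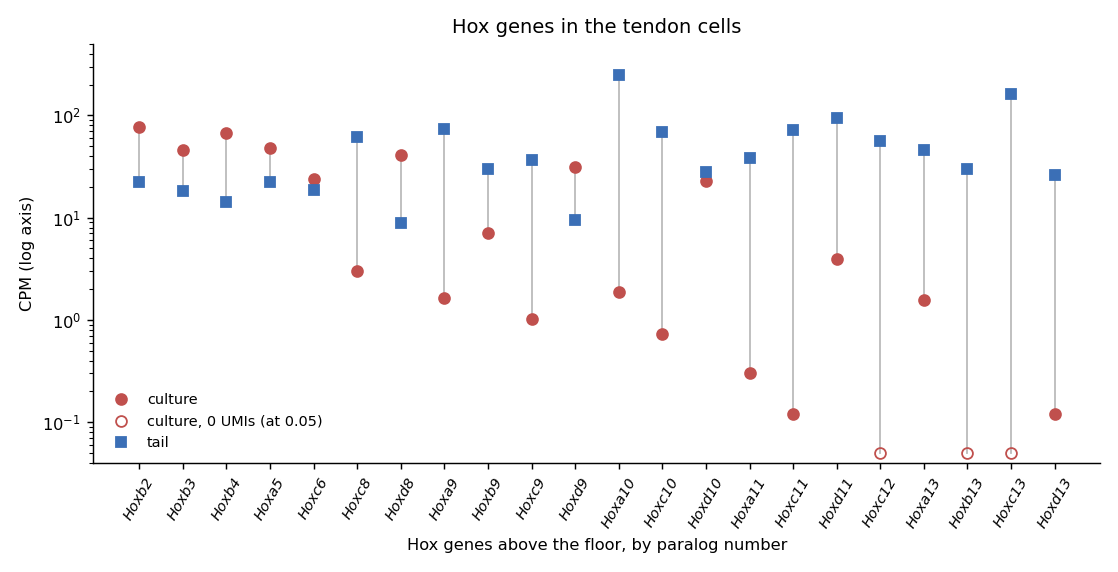
CPM of tested Hox genes in the tendon cells of the culture and the tail on a log axis, ordered by paralog number. Open circles mark genes with 0 UMIs in the culture, placed at 0.05. Anterior genes lie to the culture side and most genes of groups 9 to 13 to the tail side.

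Of 40 mesenchyme patterning genes 20 were tested, and 14 of these passed the floor through the tail alone, so their direction was fixed by it. Of the 6 that reached 20 CPM in both libraries, 5 were higher in the tail. *Osr2* and *Osr1*, which pattern connective tissue of limb and trunk, stood at 0 and 15.7 CPM in the culture and 154 and 138 CPM in the tail. *Osr2* had no culture UMI and was at least 852-fold higher in the tail. *Prrx1* and *Prrx2*, general mesenchyme factors, were 3.99 (3.81 to 4.19) and 7.11 (6.37 to 7.96) times higher in the tail, and *Ebf1*, *Ebf2* and *Ebf3* 3.13, 11.3 and 38.2 times. The limb-associated *Pitx1*, *Tbx4* and *Tbx5* were found in 4.72%, 6.93% and 7.96% of tail cells, and in the culture they held 0, 0 and 4 UMIs. *Tbx2*, at 32.1 against 31.1 CPM, did not differ 2-fold.

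Among imprinted genes, the noncoding RNAs of the Dlk1-Dio3 cluster differed most. *Meg3* stood at 71.6 CPM in the culture and 3444 CPM in the tail, a ratio of 48.1 (45.4 to 51). It was found in 4.01% of culture cells (3.29 to 4.84) and 94.7% of tail cells (92.7 to 96.3), and in 4.22% and 96.9% without thinning. The share was 4.8% in erythroid cells of the tail, at a median of 8391.5 UMIs per cell before thinning, and 3.52% in pluripotent-like cells of the culture, at a median of 10370 UMIs. The culture tendon cells that held *Meg3* were few but often held several UMIs of it, since 125 cells had a median of 7 UMIs (5th to 95th percentile 1 to 26) and 12.8% of them held a single UMI. At equal depth the median was 4 UMIs in culture cells with *Meg3* and 9 in tail cells with it. *Rian* and *Mirg*, transcribed from the same strand of the cluster, were 37.8 (33 to 43.4) and 24.2 (18.1 to 32.9) times higher in the tail, whereas *Dlk1*, from the other allele, stood at 830 against 1209 CPM. At a separate imprinted locus *Peg3* and its neighbors *Usp29* and *Zim1* were higher in the culture, with *Peg3* at 3103 against 832 CPM. *H19* and *Igf2* were within 2-fold, and 14 of the 23 tested genes were not called.

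Although a separate cluster held the dividing tendon cells, 21 of 37 tested cell cycle genes were higher in the culture tendon cells and 1 in the tail (median log2 ratio 1.96). Of the 23 at the floor in both libraries, 8 were higher in the culture and 1 in the tail (median 0.35). *Top2a*, of S and G2 phase, stood at 142 against 20.2 CPM and was found in 21.3% of culture cells and 4.87% of tail cells. The mitotic genes *Hmmr*, *Aurka* and *Plk1* were 14.9, 12.5 and 10 times higher in the culture. Replication genes differed less, with *Mcm6* at 142 against 111 CPM and *Pcna* at 20.4 against 21.5 CPM. *Ccnd1* was the single gene of the list called higher in the tail, with a culture over tail ratio of 0.49 that was 0.51 in cells with a *Scx* UMI.

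Of 6 tested CDK inhibitors 4 were higher in the culture tendon cells and 1 in the tail, and of the 3 at the floor in both libraries 1 each. The summed level of the list was nevertheless lower in the culture, at 2364 against 3801.5 CPM. At 3000 UMIs the median cell held 6 UMIs of these genes in the culture and 9 in the tail, and most of the sum was *Cdkn1c*. *Cdkn1a*, the p53 and TGFβ target p21, stood at 524 CPM in the culture and 2.57 CPM in the tail, a ratio of 204 (139 to 312). It was found in 53.5% of culture cells (51.5 to 55.4) and 0.442% of tail cells (0.0913 to 1.29). *Cdkn2a* and *Cdkn2b*, neighbors whose products restrain CDK4 and CDK6, stood at 104 and 115 CPM in the culture, with 1 and 4 UMIs in the tail. *Cdkn2a* and *Cdkn2b* UMIs occurred together in 5.97% of culture cells (5.09 to 6.95), where the product of the shares gives 1.97%. *Cdkn1a* and *Top2a* occurred together in 10.5% (9.33 to 11.7), near the product of 11.4%. No background share of either gene is given here, so whether the same cells expressed both was not tested. *Cdkn1c*, the imprinted p57, went the other way at 1449 against 3696 CPM. Other p53 targets were also higher in the culture, 15 of 23 tested with 2 higher in the tail. For the 13 at the floor in both libraries the counts were 7 and 0. Higher in the culture were the apoptosis gene *Bax* (3.54 (3.37 to 3.73)) and *Ccng1* (8.53 (7.42 to 9.84)), while *Mdm2* stayed within 2-fold at 1.77.

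The culture had received TGFβ1, and 8 of 16 tested TGFβ response genes were higher in its tendon cells and 2 in the tail (median log2 ratio 1.30). Of the 10 at the floor in both libraries, 3 were higher in the culture and 1 in the tail (median 0.17). *Pmepa1*, a feedback inhibitor, stood at 839 CPM in the culture and 192 CPM in the tail, a ratio of 4.38 (4.18 to 4.6). *Skil*, another feedback gene, was 3.4 (3.12 to 3.72) times higher and *Ctgf*, a matricellular target, 5.39 (4.76 to 6.11) times. *Smad7*, the inhibitory SMAD, did not differ 2-fold, at 73.4 against 91.1 CPM, nor did *Tgfbi* at 229 against 156 CPM. *Snai2* and *Junb* were higher in the tail. Of the 8, those other than *Pmepa1* and *Skil* also stand in other lists.

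The ligands differed among themselves. *Tgfb1* stood at 61.5 CPM in the culture and 9.28 CPM in the tail, a ratio of 6.62 (5.36 to 8.27), and *Tgfb2*, the ligand on which tendon formation depends together with *Tgfb3*, at 76.4 and 284 CPM, 3.71 (3.47 to 3.97) times higher in the tail. *Tgfb3* was at 51.7 and 49.2 CPM. The receptors *Tgfbr1* and *Tgfbr2* were within 2-fold, at 76.2 against 82.9 and 66.9 against 107 CPM, but the coreceptor *Tgfbr3*, which presents TGFβ2, was 16.2 (12.5 to 21.3) times higher in the tail. Of 15 tested ligands, receptors and SMADs 2 were higher in the culture, 4 in the tail. For the 10 at the floor in both libraries the counts were 0 and 1, so the direction of most of these calls was fixed by the floor.

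The culture had also received the Smoothened agonist SAG and FGF2. Of the hedgehog feedback genes, *Hhip* stood at 99.3 CPM in the culture and 8.0 CPM in the tail, a ratio of 12.4 (9.93 to 15.7), and the receptor *Ptch1* at 234 and 99.4 CPM, a ratio of 2.36 (2.2 to 2.53). The target *Gli1* did not follow, at 22.5 against 17.8 CPM. The coreceptors *Gas1* and *Cdon*, which hedgehog signaling represses, were 10.1 (9.6 to 10.6) and 9.76 (8.46 to 11.3) times higher in the tail, and *Gas1* was found in 84.2% of tail cells and 23.9% of culture cells. *Foxf1*, a hedgehog target of sclerotome and gut mesenchyme, held 283 UMIs in the tail but 8 in the culture. Of 16 tested genes, 2 were higher in the culture and 7 in the tail, and of the 6 at the floor in both libraries 1 each.

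Among FGF genes 6 of 20 tested were higher in the culture, 3 in the tail. For the 12 at the floor in both libraries the counts were 3 and 0. The feedback phosphatase *Dusp6* and the target *Etv4* stood at 146 against 18.8 CPM and 35.6 against 8.1 CPM, ratios of 7.79 (6.72 to 9.08) and 4.4 (3.49 to 5.61). *Spry1* was 2.29 (2.05 to 2.57) times higher in the culture, *Spry2* 4.7 (3.97 to 5.58) times higher in the tail and *Spry4* flat at 22.7 against 23.8 CPM. *Fgf18*, a ligand of the forming skeleton, was 2.46 (2.25 to 2.69) times higher in the culture. The mesenchymal ligands *Fgf7* and *Fgf10* were low in the culture, with 9 and 19 UMIs there against 214 and 215 in the tail.

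WNT genes were higher in the tail in 14 of 26 tested cases and in the culture in 2, with a median log2 ratio of −1.11. Of the 18 at the floor in both libraries, 6 were higher in the tail and 2 in the culture. *Axin2*, the feedback target of the canonical pathway, stood at 4.94 CPM in the culture and 48.3 CPM in the tail, 9.77 (7.72 to 12.5) times higher in the tail. The noncanonical ligands *Wnt5a* and *Wnt11* were 8.05 (7.17 to 9.05) and 5.15 (4.47 to 5.95) times higher there, and the secreted modulator *Sfrp2* stood at 9.16 against 494 CPM. *Lef1*, in contrast, did not differ 2-fold at 47 against 29.3 CPM. *Nkd2* and *Fzd1*, an inhibitor and a receptor, were the 2 genes higher in the culture.

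BMP genes were higher in the tail in 5 of 19 tested cases and in the culture in 2 (median −0.69). For the 14 at the floor in both libraries the counts were 2 and 1 (median −0.64). The BMP target *Id1* stood at 119 CPM in the culture and 357 CPM in the tail, a ratio of 3.01 (2.85 to 3.18), while *Id2* and *Id3* were 1.79 and 1.69 times higher there, within 2-fold. The ligand *Bmp2* was 5.67 (4.63 to 6.98) times higher in the tail, and *Bmp4* was 1.65 times higher in the culture. The antagonist *Chrdl1* was 9.49 (7.21 to 12.7) times higher in the culture.

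The retinaldehyde dehydrogenases, which make retinoic acid, were split, *Aldh1a3* at 142 CPM in the culture against 15.6 CPM in the tail and *Aldh1a2* at 7.11 against 35.4 CPM. The binding proteins were split too, with *Fabp5* 5.36 (5.21 to 5.53) times higher in the culture and *Crabp1* 17.9 (16.1 to 19.9) and *Crabp2* 3.54 (3.32 to 3.77) times higher in the tail. The target and receptor *Rarb* was 2.69 (2.24 to 3.24) times higher in the tail, and in all 3 of 13 tested genes were higher in the culture, 4 in the tail. The receptor *Pdgfra*, of mesenchymal progenitors, stood at 66.7 against 244 CPM while *Pdgfrb* was flat at 92.6 against 104 CPM. *Igf1*, a tendon growth factor, was flat at 293 against 305 CPM. The chemokine *Cxcl14* held 4483 UMIs in the tail but 11 in the culture, and in the tail 36.9% of cells had it. Of 28 contractile and YAP-associated genes 6 were higher in the culture and 2 in the tail, with *Tagln* 2.98 (2.83 to 3.14) and *Myh9* 3.01 (2.79 to 3.25) times higher in the culture and *Cyr61*, a YAP target, at 153 against 167 CPM.

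Glycolysis genes were higher in the culture tendon cells nearly throughout. Of 23 tested enzymes and transporters, 19 were higher in the culture and 0 in the tail, with a median log2 ratio of 1.86. Of the 19 at the floor in both libraries 15 were higher in the culture. *Pgk1*, the first ATP-yielding enzyme of the pathway, stood at 1871 CPM in the culture and 222 CPM in the tail, a ratio of 8.44 (8.09 to 8.81). The lactate exporter *Slc16a3* stood at 271 and 26.7 CPM, a ratio of 10.2 (8.98 to 11.5), and *Ldha*, which makes lactate, at 2049 and 534 CPM, a ratio of 3.84 (3.73 to 3.95). The glucose importer *Slc2a1* was 5.63 (5.07 to 6.26) times higher and the flux-setting *Pfkp* 15.8 (11.7 to 21.8) times. *Pfkm* and *Ldhb*, the muscle phosphofructokinase and the heart-type lactate dehydrogenase, had tail over culture ratios of 1.1 (0.942 to 1.28) and 1.19 (1.13 to 1.26).

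Hypoxia response genes outside glycolysis were higher in the culture in 13 of 25 tested cases and in the tail in 2 (median 1.44). For the 16 at the floor in both libraries the counts were 8 and 0 (median 1.09). *Fam162a* and *Bnip3*, mitochondrial proteins induced by HIF, stood at 1272 against 179 CPM and 164 against 36.2 CPM. The prolyl hydroxylases *Egln1* and *Egln3*, which mark HIF for decay and are themselves HIF targets, were 3.56 (3.36 to 3.77) and 15 (11.7 to 19.6) times higher in the culture. *Hif1a* itself was within 2-fold at 142 against 174 CPM, and so were the targets *Vegfa* and *Ddit4*, at ratios of 1.64 and 1.18. *Angptl4*, another known target, was 64.9 (39 to 117) times higher in the tail.

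The motif bound by HIF holds the core ACGTG, so the 250 bases before the RefSeq start of these genes (GRCm38.p6) were searched for ACGTG on either strand. By gene, a match was found for 12 of 22 glycolysis genes with a listed promoter (54.5%) and 13 of 21 other hypoxia genes (61.9%), compared with 1736 of 6451 tested genes (26.9%) and 4 of 18 tricarboxylic acid cycle genes (22.2%). Counted by promoter, since some genes list several, the shares were 15 of 35 (42.9%), 14 of 26 (53.8%), 1895 of 8308 (22.8%) and 9 of 23 (39.1%), so the tricarboxylic acid cycle genes were near glycolysis by this count. For cholesterol genes, most of which were also higher in the culture, the counts were 4 of 17 genes (23.5%) and 4 of 20 promoters (20%). The hypoxia genes were listed as known hypoxia responders, so their share can follow from that choice, and no share was tested. Mean GC content was 60.4% in the glycolysis promoters, 64.3% in the hypoxia promoters and 60.9% over tested genes. The promoters of 4 glycolysis genes and 1 hypoxia gene are shown, picked after the search as 4 windows with a match and, from *Pfkp*, the glycolysis gene with the largest ratio of those listed, 1 without. Each runs from 250 bases before the start up to the start on the gene's own strand, with any matches of ACGTG or its complement CACGT in capitals; CACGTG reads as a match on both strands. They lie at chr11:120948817-120949066 (plus strand, *Slc16a3*), chrX:106186850-106187099 (plus, *Pgk1*), chr7:46845554-46845803 (plus, *Ldha*), chr12:54203875-54204124 (minus, *Egln3*) and chr13:6648772-6649021 (minus, *Pfkp*).
Slc16a3: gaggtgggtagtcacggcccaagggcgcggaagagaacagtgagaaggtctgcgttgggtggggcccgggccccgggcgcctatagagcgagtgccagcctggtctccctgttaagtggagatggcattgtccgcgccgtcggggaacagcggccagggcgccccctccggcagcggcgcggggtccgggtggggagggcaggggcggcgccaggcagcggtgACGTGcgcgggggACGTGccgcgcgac
Pgk1: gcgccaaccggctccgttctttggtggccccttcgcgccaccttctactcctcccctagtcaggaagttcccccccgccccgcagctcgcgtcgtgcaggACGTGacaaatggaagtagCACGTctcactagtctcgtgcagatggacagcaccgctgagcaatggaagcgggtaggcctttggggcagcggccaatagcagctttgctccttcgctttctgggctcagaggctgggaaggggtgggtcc
Ldha: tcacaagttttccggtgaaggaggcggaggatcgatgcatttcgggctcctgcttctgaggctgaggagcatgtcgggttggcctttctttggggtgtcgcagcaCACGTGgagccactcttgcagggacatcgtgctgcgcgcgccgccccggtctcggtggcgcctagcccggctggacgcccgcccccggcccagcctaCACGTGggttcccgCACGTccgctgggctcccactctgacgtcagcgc
Egln3: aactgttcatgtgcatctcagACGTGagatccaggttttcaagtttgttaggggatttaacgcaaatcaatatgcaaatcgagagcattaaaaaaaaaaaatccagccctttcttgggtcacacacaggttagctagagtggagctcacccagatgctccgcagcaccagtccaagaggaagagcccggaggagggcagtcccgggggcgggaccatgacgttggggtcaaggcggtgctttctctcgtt
Pfkp: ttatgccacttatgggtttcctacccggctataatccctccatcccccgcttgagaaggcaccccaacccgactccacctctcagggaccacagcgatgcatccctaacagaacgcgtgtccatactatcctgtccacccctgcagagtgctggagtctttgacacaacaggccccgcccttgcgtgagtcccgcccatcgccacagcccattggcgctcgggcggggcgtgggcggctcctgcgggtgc
The *Ldha* window held 5 matches, those of *Slc16a3* and *Pgk1* 2 each, that of *Egln3* 1 and that of *Pfkp* 0. The other listed window of *Ldha*, both windows of *Aldoc* (14.2 times higher in the culture) and that of *Stc2* (48.7 times higher) also held none. A match describes these letters and does not show binding.

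The glycolytic difference was shared by most cells. After thinning to 3000 UMIs, the median culture cell held 45 UMIs of the glycolysis list and the median tail cell 9. The 95th percentile of the tail was 22 UMIs, and 84.3% of culture cells were above it, whereas no tail cell was above the culture median. For hypoxia genes the medians were 14 and 4 UMIs and 66.4% of culture cells were above the tail's 95th percentile. By comparison the medians were 77 and 63 UMIs for respiratory chain genes.

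**Figure D3:**
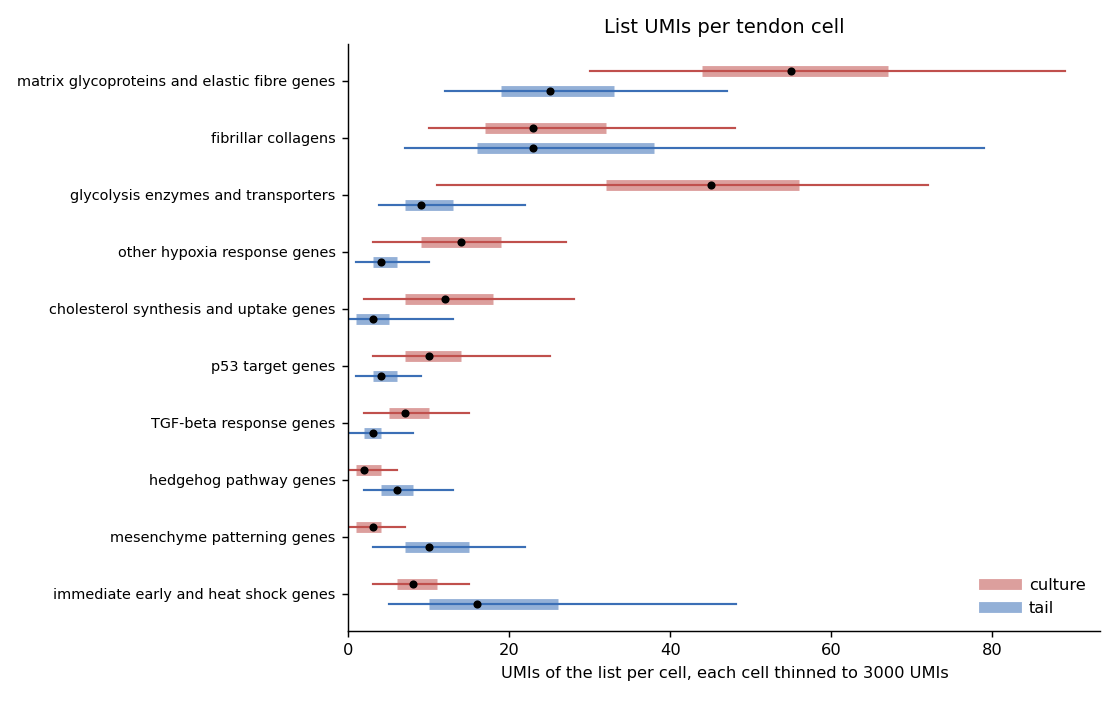
UMIs per tendon cell of selected gene lists after thinning each cell to 3000 UMIs, as medians with the 5th, 25th, 75th and 95th percentiles for culture and tail cells. For glycolysis the medians are 45 and 9 and the 5th percentile of the culture (11) lies below the 95th of the tail (22), while those of the fibrillar collagens share a median of 23.

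Genes of respiration did not follow those of glycolysis. Of 72 nuclear-encoded respiratory chain genes 3 were higher in the culture and 0 in the tail (median log2 ratio 0.16), and of 21 tricarboxylic acid cycle genes none was called, with *Cs*, citrate synthase, at 63.3 against 55.3 CPM. Mitochondrially encoded transcripts were lower in the culture at the median (−0.76), with *mt-Cytb* at 3593 against 6089 CPM and 3 of 13 called higher in the tail. Those 3 passed the floor in the tail only, so their direction was fixed by it. For the 10 at the floor in both libraries the median was −0.61, and 0 were called. Mitochondrial transcripts made up 2.01% of all UMIs in culture cells and 3.15% in tail cells.

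Among genes of cholesterol synthesis and uptake, 20 of 24 tested were higher in the culture and 0 in the tail (median 1.47), and 16 of the 20 at the floor in both libraries. *Cyp51*, a demethylase of the pathway, stood at 732 CPM in the culture and 167 CPM in the tail, and the sterol sensor *Insig1* at 209 and 35.8 CPM. Among fatty acid synthesis genes, 8 of 15 tested were higher in the culture and 0 in the tail, and of the 11 at the floor in both libraries 4 and 0. The desaturase *Scd1* led at 187 against 19 CPM, while the synthase *Fasn* was within 2-fold at 92 against 64.2 CPM. Serine, one-carbon and amino acid stress genes were higher in the culture in 10 of 28 tested cases and in the tail in 1. For the 19 at the floor in both libraries the counts were 4 and 0 (median 0.35). *Asns* stood at 71.7 against 30.6 CPM, and *Atf4*, the regulator of these genes, was flat at 183 against 152 CPM.

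Of 27 tested immediate early genes, the first to respond to a stimulus, and heat shock genes, 13 were higher in the tail and 2 in the culture (median −0.89). Those higher in the culture were *Ier3*, at 296 against 34.6 CPM, and *Hmox1*, at 52.9 against 15.8 CPM. *Fos* stood at 27.3 CPM in the culture and 889 CPM in the tail, a ratio of 32.5 (29.6 to 35.9), and *Jun* at 269 and 965 CPM. *Fosb* and *Nr4a1* were 45.3 (37.4 to 55.3) and 18.1 (12.3 to 27.4) times higher in the tail. The force-responsive *Egr1* belongs to this list too. Ribosomal protein genes were lower in the culture at the median (−0.60), with 3 of 79 tested higher there and 2 in the tail. *Rps2* stood apart at 1251 against 14.2 CPM. It has near-identical copies and stood at 14.2 CPM in the tail's fibrocartilage cells as well, so its value is uncertain. Antioxidant and iron genes were mostly within 2-fold, with *Tfrc*, the iron importer, 4.83 (4.11 to 5.71) times higher in the culture and *Selenop* 15.8 (12.3 to 20.4) times higher in the tail.

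Part of the contrast between culture and tail was present outside tendon cells. Of the genes higher in culture tendon cells, 69.9% of those tested in proliferating tendon cells (397 of 568) and 68.7% in fibrocartilage cells (357 of 520) were also at least 2-fold higher there, and 33.9% in endothelial cells (146 of 431, from 58 and 71 cells). Over all genes tested in these cells, 6.74%, 6.9% and 11.4% were higher in the culture. Of the genes higher in tail tendon cells, the shares were 74.2% (509 of 686), 62.0% (375 of 605) and 28.6% (112 of 392), where 8.61%, 9.63% and 14.7% of all tested genes were higher in the tail. The glycolysis medians were 1.88 in proliferating tendon, 1.56 in fibrocartilage and 1.45 in endothelial cells, next to 1.86 in tendon cells. Mesenchyme patterning genes had medians of −3.39, −1.93 and −0.48, and TGFβ response genes 1.30, 0.23 and 0.58. Cell cycle genes were at −0.07 in proliferating tendon cells, 1.47 in fibrocartilage cells and −2.57 in endothelial cells. These medians rest on the same floor, different tested genes and 1 library per side, and no difference between cell types was tested.

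**Figure D4:**
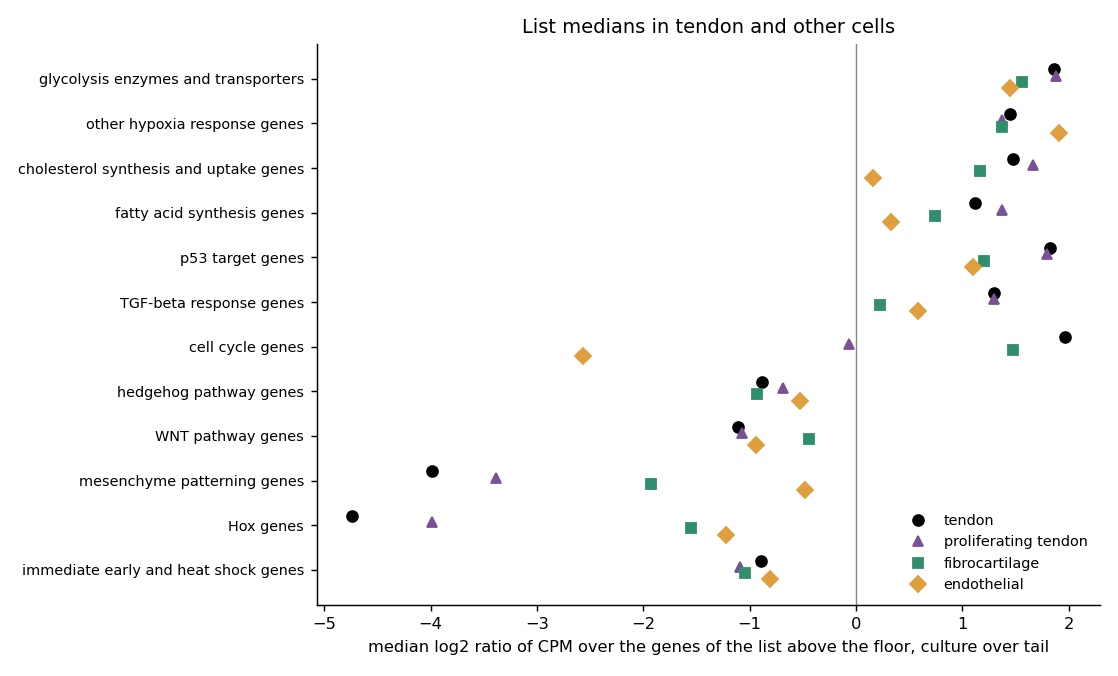
Median log2 ratio of culture over tail for each gene list in tendon, proliferating tendon, fibrocartilage and endothelial cells. Glycolysis and hypoxia medians lie to the culture side in each of the 4, whereas the cell cycle median is positive in tendon and fibrocartilage cells only.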

How the data were processed

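Single-cell counts of 2 libraries were used, the D10 culture and the E14.5 tail, and the D6 paraxial mesoderm library was not used here. The deposited files hold whole UMI counts per gene and cell, made by the authors with Cell Ranger and filtered in Seurat 3.0 per the submitters' processing notes, and each cell carries a cluster code from the authors. The methods describe a ceiling on mitochondrial reads and removal of cells at both extremes of depth, and the genome build of the counts is not given in the sources used here. Reads that map to several places were not counted, which lowers genes with near-identical copies.

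UMIs of 27755 genes were summed over the cells of code 1 and scaled to CPM. Poisson (CPM), conditional binomial (ratios) and Clopper-Pearson (shares) intervals at 95% cover counting error only, and the culture rests on more UMIs over more, shallower cells. With 1 library per group no test was run. A gene with 0 UMIs was set at 3 counts over the group, which makes its ratio a lower bound. Doublets were called (116 culture cells, 1.48%, and 9 tail cells, 0.439%, of which 19 and 1 are of code 1) and kept. The fold calls were tested on simulated data. The members and gene lists were chosen with earlier results of these data known. Genes named are list members with the largest ratios or defining roles and, over tested genes with at least 50 CPM in the higher library, the 15 on each side whose interval bound nearest 1 is farthest from it. Promoters came from RefSeq (GRCm38.p6), matched by symbol. Python 3.11.15, NumPy 2.4.6, SciPy 1.17.1, pandas 2.3.3, Scanpy 1.11.5 and Matplotlib 3.10.9 were used.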

Additional observations from a re-analysis of the deposited data

Results flagged for a closer look

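The secreted WNT inhibitors *Dkk1* and *Dkk2* had opposite directions in tendon and fibrocartilage cells of the same libraries. In tendon cells *Dkk1* stood at 16.1 CPM in the culture against 45.5 CPM in the tail, 2.83 times higher in the tail, and in fibrocartilage cells at 29.5 against 5.44 CPM, 5.415 times higher in the culture. *Dkk2* stood at 42.4 against 185 CPM in tendon cells, 4.37 times higher in the tail, and at 81.8 against 24.2 CPM in fibrocartilage cells, 3.382 times higher in the culture. For *Dkk1* the floor of 20 CPM was reached by the tail alone in tendon cells and by the culture alone in fibrocartilage cells. The floor thus fixed the direction of *Dkk1* in both, whereas *Dkk2* reached it in both libraries in each cell type. These were 2 of the 297 named genes called in tendon cells that could be compared in fibrocartilage cells, while 0 of 339 turned in proliferating tendon cells. The difference between cell types was not tested, since each side has 1 library. Endothelial cells, with 58 culture cells and 71 tail cells, were left out of this comparison because it was limited to cell types with at least 100 cells in each library, and there 37 of 205 genes were past 2-fold the other way.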

How the results depend on the processing

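No paired analysis was possible because the labels give 1 library per group and no shared replicate number. Of 362 named genes called in either direction, none changed sign under any alternative tried. They kept direction and 2-fold size in 357 cases with mitochondrial, ribosomal and haemoglobin genes out of the totals, 354 with ratios centered on the median, 353 with the mean of per-cell CPM, 355 after thinning to 3000 UMIs, 361 without called doublets and 348 in cells with a *Scx* UMI. Without cells over 1% haemoglobin UMIs, an alternative chosen after seeing the data, the number was 362. In cells without UMIs of *Mki67*, *Top2a* and *Cenpf* it was 343 of 359, since those 3 genes have no value there, and 27 maturity genes were higher in the culture instead of 43. With a floor of 50 CPM, 378 genes were higher in the culture and 381 in the tail, and the counts became 17 matrix genes higher in the tail, 28 maturity genes higher in the culture, 27 signaling genes higher in the tail and 15 metabolic genes higher in the tail. With genes detected in at least 10% of cells as the floor, 600 and 1420 genes were called, so 29.7% of calls were higher in the culture instead of 41.8%, and with centered ratios 50.8%. At 4-fold, 222 and 341 genes were called, with 16 and 14 matrix genes, 27 maturity genes higher in the culture, 18 and 25 signaling genes and 41 and 11 metabolic genes on the culture and the tail side. The tail cells were deeper, so the detection floor admits more genes from the tail, and low genes are limited most by the depth of the culture cells.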

Other observations

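Sex-linked RNA split the tail tendon cells but not those of the culture. Of 685 tail cells, 128 held *Xist* UMIs, 559 held UMIs of Y-linked genes, 20 held both and 18 neither, and of 2964 culture cells 29 held *Xist*, 0 held Y-linked UMIs and 2935 held neither. The tail cells thus hold RNA of both sexes, while the number of embryos is not given in the sources used here.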
